A study of Ambystoma mexicanum with 17 samples.

Results

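The comparison covered posterior forelimb blastemas of the axolotl (Ambystoma mexicanum) exposed to U0126, an inhibitor of the ERK pathway, and untreated posterior blastemas. Its members were the 5 libraries whose titles name the posterior blastema with ERK inhibitor and the 4 titled as posterior blastemas alone, 9 of the 17 libraries of the series, chosen by title. All animals carried the d/d genotype. A blastema is the mound of dividing cells from which a salamander limb regrows; here nerve deviation induced the outgrowths, which were collected 10 days after injury together with their wound epithelium. The treated group received 25 uM U0126. The labels give "None" as the treatment of the other group and also name Holtfreter's solution, a salt bath, and the solvent DMSO, without saying which of them the untreated blastemas received or how long the inhibitor was applied. Anterior blastemas (n = 5) and uninjured forelimb (n = 3) serve below as reference levels. Polyadenylated RNA was sequenced. Whether each library is a different animal is not stated, so the p-values rest on library-to-library spread, which may be technical.

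Growth factor receptors pass their signal through RAS and the kinases RAF, MEK and ERK to the nucleus. U0126 blocks MEK, the only known activator of ERK, and so lowers the transcription of ERK target genes, many of which encode inhibitors of the pathway itself, such as the Sprouty proteins and the DUSP phosphatases. In limb buds, FGFs of the apical epithelium signal through ERK to the mesenchyme, and SHH, made at the posterior margin, patterns the limb from posterior to anterior. The roles given for genes are those known from mammals and other vertebrates.

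The 9 libraries held 34181446 to 48788912 reads counted in genes, and 19398 genes had enough reads to be tested. Levels are given in CPM, reads per 1000000 of the scaled library total, which allow a gene to be compared between libraries but not with another gene. Each library was set against the mean of every group over these 19398 genes, leaving the library itself out, by the Pearson correlation of log2 CPM, which is a description. The 4 posterior libraries were all most like their own group, with r of 0.977 to 0.984. U0126 replicates 1 to 3 were most like the other U0126 libraries, with r of 0.975 to 0.985. The library labelled U0126 replicate 4 was most like the anterior blastemas (r = 0.979), with 0.975 to the posterior group and 0.973 to its own. The library labelled U0126 replicate 5 was more like the uninjured libraries (r = 0.978) than its own group (0.963). The reverse was seen in the library labelled uninjured replicate 1, which was most like the U0126 libraries (r = 0.984, against 0.926 to the other uninjured libraries). Both libraries thus go against their labels in the way that an exchange of one for the other would give, and whether they were exchanged was not tested; values of U0126 replicate 5 and uninjured reference levels carry this doubt. Among the reference libraries, anterior replicate 4 was also more like another group, the posterior one (r = 0.982), than its own (0.971). Groups were kept as labelled, and results are given with and without the library labelled U0126 replicate 5.

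**Figure D1:**
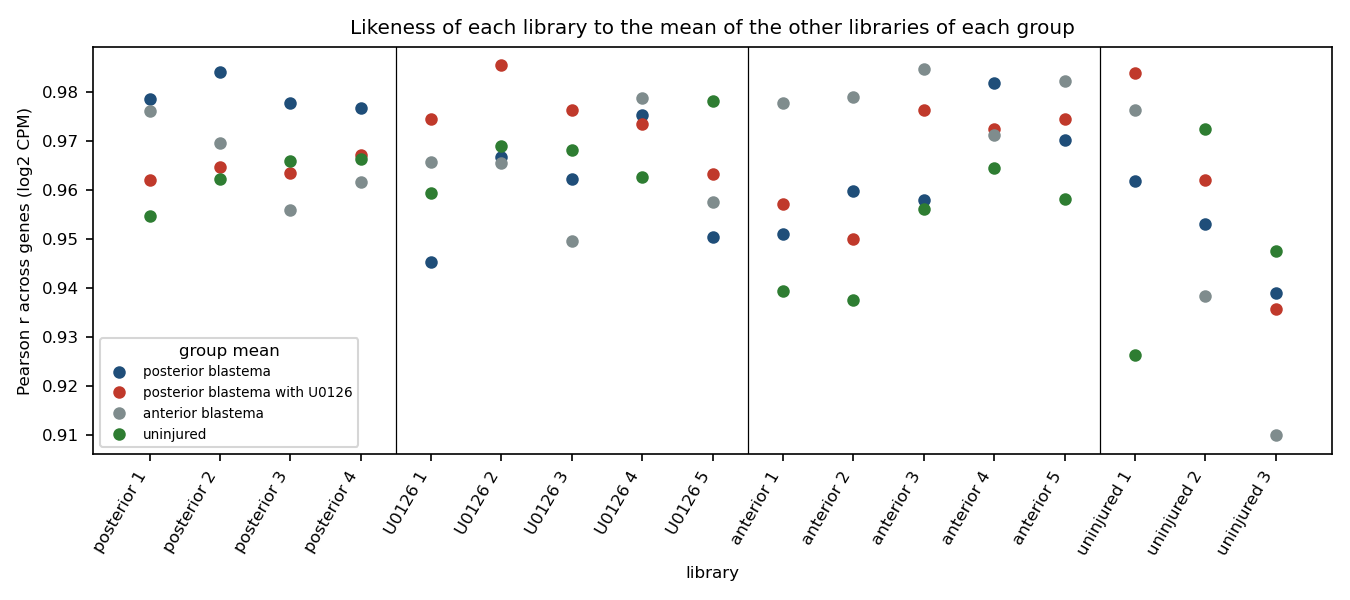
Pearson r across 19398 genes between the log2 CPM of each library (x axis) and the mean of each of the 4 groups without that library (y axis, coloured points). U0126 replicate 5 has its highest point for the uninjured group at 0.978, and uninjured replicate 1 for the U0126 group at 0.984.

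With all 9 libraries, 1576 genes, 8.12% of those tested, passed edgeR's quasi-likelihood test at an adjusted p under 0.05. Of all genes tested, 4.13% were called higher with U0126 (802 genes) and 3.99% lower (774 genes). Without the library labelled U0126 replicate 5, 1448 of 19332 genes passed (7.49%), with 4.28% of tested genes higher (827) and 3.21% lower (621), and 1152 of the 1576 calls were shared. With counts scaled to the library total alone, the split was 440 higher and 736 lower. At an unadjusted p under 0.05, 4832 of the 19398 genes passed, 2432 of them higher. DESeq2, a second tool, called 2968 of them, 1483 higher and 1485 lower. List counts given below at these levels are to be read against these counts over all genes. Some genes are in more than 1 list, such as EPHA4, FSTL1 and COL11A1, so counts of different lists can share a call. The groups did not overlap in 12.3% of genes with all libraries, 6.25% with U0126 higher and 6.02% lower. Without U0126 replicate 5 that share was 20%, or 10.8% higher and 9.23% lower. With uninjured replicate 1 left out as well, 13% of 19779 genes passed, 7.1% higher and 5.92% lower. The calls rested heavily on single libraries: 127 genes passed without posterior replicate 1, 307 without posterior replicate 2, 850 without posterior replicate 3, and 450, 698 and 678 without U0126 replicates 1, 2 and 3. Without U0126 replicate 4 the count was 2381. In no setting did a called gene change sign. Of the 1576 calls, 117 (62 higher, 55 lower) passed with any 1 of the 9 libraries left out.

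How far each treated library followed the others was read from genes called without it. U0126 replicates 1 to 3 lay beyond all 4 posterior libraries in 96.9% to 98.4% of the genes called higher in their absence and in 94.8% to 97.2% of those called lower. For replicate 4 these shares were 77.7% and 58.7%, and for the library labelled replicate 5 they were 73.8% and 81.8%. On genes called without both doubted libraries, the library labelled uninjured replicate 1 lay beyond all posterior libraries in 97% of the higher and 90.1% of the lower genes. The other uninjured libraries did so in 42% to 57.7% and 55.4% to 67%, and the library labelled U0126 replicate 5 in 62.3% and 70.5%. Anterior libraries, labelled as untreated, did so in 30.9% to 77.3% and 28.1% to 70.6%, and anterior replicate 3, the highest of them, exceeded U0126 replicate 5 in both directions. The same posterior libraries chose these genes and set the limits, so the shares describe the libraries and test nothing.

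The list of feedback inhibitors and transcriptional targets of ERK had 31 tested members, of which 3 fell and 0 rose, a share of 9.68% lower, and its median log2 fold change was −0.58 against −0.0022 over all genes. Without U0126 replicate 5 there were 4 lower and the median was −0.54. The list's median distance to the posterior mean, on the log2 scale, was −0.65 to −0.30 in U0126 libraries. It was −0.40, −0.99 and −0.50 in uninjured replicates 1 to 3 and −0.079 to 0.15 in anterior libraries. A level below the posterior mean was thus not particular to the treated libraries. PHLDA1, a growth-factor-induced gene of the pleckstrin homology-like family, stood at 47.5, 46.6, 41.5 and 57.6 CPM in posterior replicates 1 to 4 and at 7.26, 15.8, 16.6, 26.2 and 11.2 CPM in U0126 replicates 1 to 5. Every treated library was below every untreated one, replicate 4 being the nearest. The log2 fold change was −1.65 ± 0.36 (SE; edgeR adjusted p = 0.0183), and −1.55 without U0126 replicate 5. DUSP7, a phosphatase that inactivates ERK, stood at 56.1, 50.3, 46.3 and 57.1 CPM untreated and at 37.5, 22.3, 25.5, 35.3 and 32.6 CPM treated, again without overlap. Its log2 fold change was −0.78 ± 0.15 (SE; edgeR adjusted p = 0.0129). EPHA4, an ephrin receptor of limb mesenchyme that the list also holds, stood at 42, 19.5, 19.4 and 13.9 CPM untreated and at 2.08, 4.57, 4.53, 12 and 3.91 CPM treated. Replicate 4 stood at more than the other treated libraries but stayed below the lowest posterior library, and the log2 fold change was −2.13 ± 0.46 (SE; edgeR adjusted p = 0.0190). PHLDA1, DUSP7 and EPHA4 missed the threshold when posterior replicate 1 was left out (edgeR adjusted p = 0.0536 to 0.0738). EREG, an EGF receptor ligand chosen after its values were seen, passed when U0126 replicate 5 was left out (log2 fold change −1.42, edgeR adjusted p = 0.0379; 0.150 with all libraries).

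The Sprouty, SPRED and ETS-family genes, classical readouts of FGF signalling through ERK, did not pass singly. The feedback inhibitor SPRY4 stood at 8.16, 10, 5.85 and 8.79 CPM untreated and 3.93, 2.72, 4.9, 7.57 and 3.14 CPM treated, where replicate 4 alone reached the posterior range. SPRY2 stood at 12.4, 15.3, 15.2 and 11 CPM untreated and 4.78, 7.65, 8.26, 9.92 and 7.2 CPM treated, without overlap, at an edgeR adjusted p of 0.0851. Their log2 fold changes were −0.88 ± 0.29 and −0.83 ± 0.29 (SE). SPRY1 (−0.52), SPRED1 (−0.40), SPRED2 (−0.55), the phosphatases DUSP4 (−1.03) and DUSP5 (−0.97), and the ETS factors ETV1 (−1.03) and ETV4 (−0.92) also had negative log2 fold changes, with edgeR adjusted p from 0.0571 to 0.162. DUSP6, ETV5 and MAPK3 were not analysed here. Of the list's 31 members, 15 were lower and 1 higher at an unadjusted p under 0.05, and DESeq2 called 10 lower. Over all 19398 genes, 4832 were under that level, 2432 of them higher, and DESeq2 called 1485 lower. Immediate early factors, whose genes are switched on within minutes of ERK activity, showed no calls in edgeR among 22, none in DESeq2, and 1 higher and 2 lower at an unadjusted p under 0.05. FOS varied within both groups, from 49.6 to 212 CPM untreated and from 9.08 to 217 CPM treated. EGR1 did likewise (73.4 to 228 against 5.65 to 194), and FOSL1 (log2 fold change −0.73 ± 0.73, SE), MYC (0.29 ± 0.18, SE) and CCND1 (0.15 ± 0.16, SE) did not pass.

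Among the 28 tested genes of the cascade from RAS to ERK, 3 rose and 2 fell. RRAS, a RAS-related GTPase, stood at 177, 171, 147 and 144 CPM untreated and 77.5, 129.9, 79.1, 93.5 and 123 CPM treated (log2 fold change −0.66 ± 0.17, SE; edgeR adjusted p = 0.0296), and every treated library was below the lowest untreated one. The kinase genes ARAF, a RAF isoform (0.43 ± 0.10, SE), RPS6KA3, an ERK-activated kinase (0.42 ± 0.11, SE), and MKNK1, another kinase downstream of ERK chosen after its values were seen (0.48 ± 0.14, SE), rose. MAP2K1 and MAP2K2, which encode the targets of U0126, had log2 fold changes of −0.13 ± 0.26 and 0.34 ± 0.12 (SE) and were not called. RRAS, ARAF, RPS6KA3 and MKNK1 missed the threshold without 1 or more of posterior replicates 1, 2, 3 and 4 and U0126 replicates 1, 2 and 3, with highest edgeR adjusted p of 0.0723 to 0.126.

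**Figure D2:**
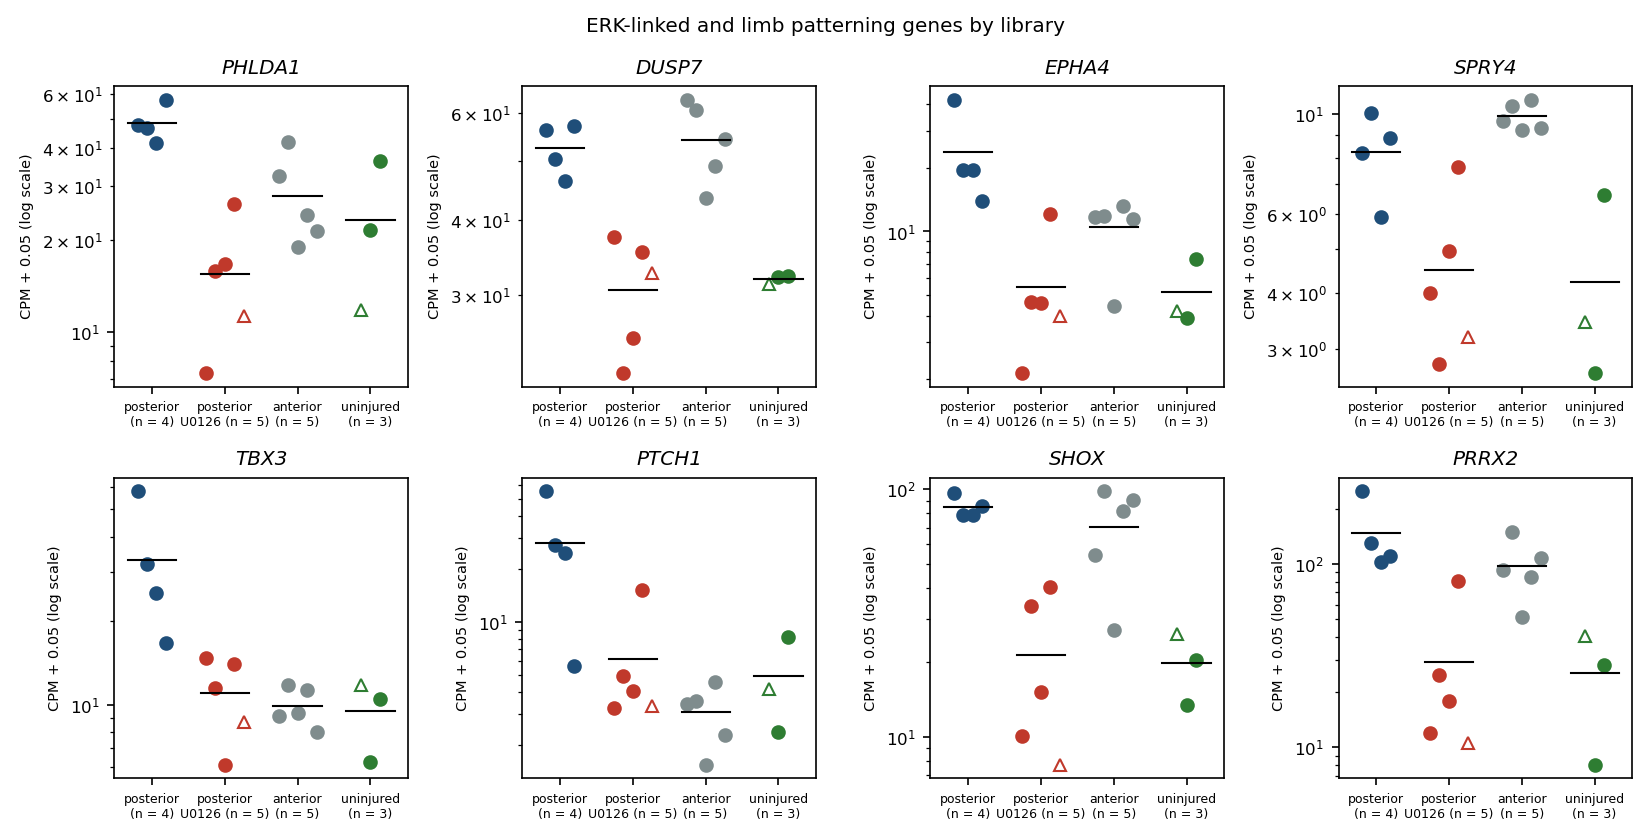
CPM + 0.05 on a log axis (y) of 4 ERK-linked genes (upper row) and 4 patterning and mesenchyme genes (lower row) in each library by group (x); lines are group means, open triangles mark U0126 replicate 5 and uninjured replicate 1. For PHLDA1, DUSP7, EPHA4, TBX3, SHOX and PRRX2 all 5 treated libraries lie below all 4 posterior ones.

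TBX3, a transcription factor of the posterior limb margin, was the 1 gene called of 14 in the posterior list, at 58.1, 31.9, 25 and 16.6 CPM untreated and 14.6, 11.5, 6.07, 14 and 8.64 CPM treated (log2 fold change −1.59 ± 0.33, SE; edgeR adjusted p = 0.0157). All treated libraries were below all untreated ones. TBX3 missed the threshold when posterior replicate 1 was left out (edgeR adjusted p = 0.0630). Across the list the median was −1.84 on the log2 scale, 14 of 14 members were below 0, 10 were lower at an unadjusted p under 0.05 and DESeq2 called 8 of them lower. The count of lower calls ran from 0 without posterior replicate 1 to 11 without U0126 replicate 4. The list's median distance to the posterior mean, on the log2 scale, was −2.33, −1.82 and −2.19 in U0126 replicates 1 to 3, −0.44 in replicate 4 and −2.73 in the library labelled replicate 5. Posterior replicates 1 to 4 stood at 0.78, 0.24, −0.17 and −0.90. Uninjured replicates 1 to 3 stood at −1.31, −3.11 and −2.79, and anterior libraries at −1.50 to −0.32. Low levels of this list were thus not particular to the treated libraries. HAND2, which acts upstream of SHH, stood at 30.6, 21.6, 17.4 and 7.15 CPM untreated and 0.843, 3.08, 1.87, 12.4 and 0.0771 CPM treated, and replicate 4 was inside the posterior range. SHH itself was low, at 7.17, 2.07, 3.2 and 0.109 CPM untreated and 0.0234, 0.0632, 0, 1.25 and 0.206 CPM treated, and it was likewise highest in replicate 4 among treated libraries. TBX2 (log2 fold change −1.60 ± 0.48, SE) and HOXD13 (−2.11 ± 0.76, SE), regulators expressed at the posterior and distal limb margin, did not pass.

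PTCH1, the hedgehog receptor that hedgehog signalling also induces, stood at 55.5, 27.4, 24.6 and 5.58 CPM untreated and 3.19, 4.87, 4.01, 15.2 and 3.29 CPM treated. The groups overlapped, since posterior replicate 4 was low and U0126 replicate 4 high. It fell with all libraries in the fit (log2 fold change −2.21 ± 0.61, SE; edgeR adjusted p = 0.0388) and did not pass without U0126 replicate 5 (adjusted p = 0.0678 in edgeR). PTCH1 missed the threshold without 1 or more of posterior replicates 1, 2 and 3 and U0126 replicates 1, 2, 3 and 5, with an edgeR adjusted p of up to 0.149. SMO, the signal transducer, chosen after its values were seen, passed without U0126 replicate 5 (log2 fold change −1.07, edgeR adjusted p = 0.0392) and not with all libraries (0.163). GLI1, a target and effector of the pathway, was not called (−1.5 ± 0.55, SE). In all, 2 of 14 hedgehog genes fell and 0 rose, with a median of −0.71.

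Of the 13 genes of the proximal limb, 3 fell. SHOX, a homeobox gene of the limb skeleton, stood at 96.2, 78.6, 79 and 85.7 CPM untreated and 10, 33.6, 15.2, 40.4 and 7.69 CPM treated, without overlap (log2 fold change −1.99 ± 0.46, SE; edgeR adjusted p = 0.0217). SHOX2, which acts in the upper arm, stood at 49.7, 24.5, 25.7 and 28.9 CPM untreated and 3.7, 9.68, 4.62, 16.9 and 2.85 CPM treated, also without overlap (−2.09 ± 0.53, SE; adjusted p = 0.0300 in edgeR). TBX5, the forelimb identity factor, stood at 35.4, 24.1, 17.6 and 16.2 CPM untreated and 2.39, 5.35, 5.01, 17.7 and 2.34 CPM treated and overlapped only through U0126 replicate 4. It did not pass without U0126 replicate 5 (log2 fold change −1.62, edgeR adjusted p = 0.0587). SHOX, SHOX2 and TBX5 missed the threshold without 1 or more of posterior replicates 1, 2 and 3 and U0126 replicates 1, 2, 3 and 5, with highest edgeR adjusted p of 0.0685 to 0.124. MEIS1 and MEIS2, regulators of the upper limb, had log2 fold changes of 0.02 ± 0.20 and −0.14 ± 0.23 (SE) and were not called. The MEIS1 estimate was −0.21 without U0126 replicate 5, which held its highest level of the group, 52.5 CPM.

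Distal and anterior genes had no calls in edgeR. Of 15 distal members, 4 were lower and 1 higher at an unadjusted p under 0.05 and DESeq2 called 2 lower. Of 14 anterior members, 2 were lower and 0 higher at that level and DESeq2 called 1 lower. Such counts are no result by themselves, since 4832 of all 19398 genes were under that level, 2432 of them higher. HOXA13, a factor of the hand region, stood at 4.72, 2.69, 3.2 and 1.79 CPM untreated and 0.281, 0.864, 1.15, 1.88 and 0.0514 CPM treated, overlapping only at U0126 replicate 4. HOXA11 (−1.79 ± 0.84, SE) and, from the proximal list, HOXA9 (−1.92 ± 0.62, SE) also had negative log2 fold changes that did not pass. The anterior factors ALX4 (−0.70 ± 0.31, SE) and LHX9 (1.39 ± 0.76, SE) were not called; LHX9 stood at 0.281, 0.232, 0.456, 1.59 and 0.206 CPM in the treated libraries, against 11.5 to 25 CPM in anterior blastemas. LHX2, an apical mesenchyme factor, had a log2 fold change of −1.75 ± 1.03 (SE). FGF2 was the 1 gene called of 11 in the FGF list, which also holds the FGF-binding protein genes FGFBP1 and FGFBP2. FGF2 stood at the low levels of 0.168, 0.218, 0.514 and 0.458 CPM untreated and 0.0468, 0.0422, 0.195, 0.122 and 0.0771 CPM treated (log2 fold change −1.78 ± 0.52, SE). It did not pass without U0126 replicate 5 (edgeR adjusted p = 0.0766). FGF2 missed the threshold without 1 or more of posterior replicates 1, 2, 3 and 4 and U0126 replicates 1, 2 and 5, with an edgeR adjusted p of up to 0.125. The limb signals FGF8 (−1.47 ± 0.92, SE), FGF9 (−0.38 ± 0.80, SE) and FGF10 (−1.14 ± 0.54, SE) did not pass. FGF10 stood at 7.06 CPM in U0126 replicate 4 and at 0.867 to 2.54 CPM in the other treated libraries.

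ALDH1A3, an enzyme that makes retinoic acid, fell. It stood at 49, 74.2, 79 and 31.8 CPM untreated and 3.19, 11.7, 14.5, 12.7 and 22.1 CPM treated, with the highest treated library below the lowest untreated one (log2 fold change −2.19 ± 0.43, SE; edgeR adjusted p = 0.0135). RARA, a retinoic acid receptor, fell with it (−1.19 ± 0.28, SE; edgeR adjusted p = 0.0232). These were the 2 calls among 17 genes of the list. ALDH1A3 stayed called with any 1 of the 9 libraries left out. RARA missed the threshold without 1 or more of posterior replicates 1 and 2 and U0126 replicates 1, 2 and 3, with an edgeR adjusted p of up to 0.0901.

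Among 34 receptor tyrosine kinases and growth factors, 7 fell (20.6%) and 2 rose. FGFR1, the mesenchymal FGF receptor, stood at 92.8, 75, 69.7 and 66.5 CPM untreated and 20.2, 29.3, 29.7, 47.4 and 37.2 CPM treated, without overlap (log2 fold change −1.21 ± 0.24, SE; edgeR adjusted p = 0.0135). PDGFRA, the receptor of connective tissue cells, stood at 66.1, 53.4, 49.4 and 77.3 CPM untreated and 11.3, 24.1, 22.6, 34.4 and 18.7 CPM treated, and the growth factor gene IGF2 at 51.2, 39, 41.1 and 57.8 CPM untreated and 8.1, 17.4, 23.3, 23.7 and 8.15 CPM treated. Neither overlapped between groups. Their log2 fold changes were −1.47 ± 0.31 and −1.55 ± 0.32 (SE), and that of MERTK, a receptor for dying cells, was −1.09 ± 0.23 (SE). The 2 that rose, named after their values were seen, were ERBB2 (0.51 ± 0.11, SE) and EGFR (0.55 ± 0.16, SE), EGF-family receptors abundant in epithelia; EGFR did not pass without U0126 replicate 5 (edgeR adjusted p = 0.0722). FGFR1, PDGFRA and IGF2 missed the threshold when posterior replicate 1 was left out (edgeR adjusted p = 0.0571 to 0.0599). MERTK, ERBB2 and EGFR missed the threshold without 1 or more of posterior replicates 1, 2, 3 and 4 and U0126 replicates 1, 2, 3 and 5, with highest edgeR adjusted p of 0.0553 to 0.116.

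Of 18 EPH receptors and ephrins, which sort cells by contact repulsion, 5 fell and 0 rose. EPHA7 stood at 40.7, 24, 21.7 and 17.1 CPM untreated and 4.68, 5.31, 3.73, 11.8 and 1.62 CPM treated (log2 fold change −2.25 ± 0.47, SE), and EPHB3 at 102, 97.3, 82 and 86.4 CPM untreated and 59.3, 42.5, 47.4, 65.3 and 50.7 CPM treated (−0.79 ± 0.15, SE). Both separated the groups fully. EFNA4, a ligand, fell (−0.69 ± 0.18, SE). Guidance genes of the semaphorin, netrin and slit systems held 7 lower calls among 32, among them the netrin receptor NEO1 (−1.34 ± 0.27, SE) and the semaphorin receptors PLXND1 (−0.93 ± 0.22, SE) and NRP2 (−1.43 ± 0.35, SE). EPHA7, EPHB3 and NEO1 missed the threshold when posterior replicate 1 was left out (edgeR adjusted p = 0.0537 to 0.0651). EFNA4, PLXND1 and NRP2 missed the threshold without 1 or more of posterior replicates 1 and 2 and U0126 replicates 1, 2 and 3, with highest edgeR adjusted p of 0.0794 to 0.0883. Of 44 WNT genes 4 fell: the receptors FZD2 (−1.23 ± 0.22, SE), FZD7 (−2.09 ± 0.49, SE) and FZD1 (−0.58 ± 0.16, SE) and the target and inhibitor AXIN2 (−0.94 ± 0.24, SE). AXIN2 did not pass without U0126 replicate 5 (edgeR adjusted p = 0.0545). FZD2 missed the threshold when posterior replicate 1 was left out (edgeR adjusted p = 0.0513). FZD7, FZD1 and AXIN2 missed the threshold without 1 or more of posterior replicates 1, 2 and 3 and U0126 replicates 1, 2, 3 and 5, with highest edgeR adjusted p of 0.0845 to 0.0990.

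BMP and TGF-beta genes held 7 lower calls among 43 and 0 higher. TGFBR1, the type 1 TGF-beta receptor, stood at 51.3, 59.9, 58.6 and 57.2 CPM untreated and 36.8, 33.7, 33.5, 33.3 and 30.6 CPM treated (log2 fold change −0.76 ± 0.13, SE; edgeR adjusted p = 0.0113). The narrow ranges of both groups did not meet. LTBP1, which stores latent TGF-beta in the matrix (−1.17 ± 0.29, SE), BMP1, a procollagen protease (−0.79 ± 0.21, SE), and FSTL1, a secreted glycoprotein of mesenchyme (−1.48 ± 0.33, SE), fell as well. TGFBR1 stayed called with any 1 of the 9 libraries left out. LTBP1, BMP1 and FSTL1 missed the threshold without 1 or more of posterior replicates 1, 2, 3 and 4 and U0126 replicates 1, 2 and 3, with highest edgeR adjusted p of 0.0685 to 0.0925. NOTCH genes held no calls in edgeR among 16, with 2 higher and 2 lower at an unadjusted p under 0.05 and 1 higher in DESeq2.

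Connective tissue regulators of the blastema held 4 lower calls among 23, with a median of −1.06. PRRX2, a homeobox gene of limb mesenchyme, stood at 249, 130.2, 102 and 109.8 CPM untreated and 11.9, 24.7, 17.8, 81 and 10.5 CPM treated. Replicate 4 was the highest treated library and still lay below every posterior one. The log2 fold change was −2.34 ± 0.59 (SE; edgeR adjusted p = 0.0293). TCF12, a bHLH factor, fell (−1.04 ± 0.22, SE), as did KAZALD1, a secreted blastema protein, at 7.7, 3.18, 2.78 and 1.5 CPM untreated and 0.0234, 0.253, 0.672, 1.1 and 0.206 CPM treated; KAZALD1 did not pass without U0126 replicate 5 (edgeR adjusted p = 0.0829). TCF12 missed the threshold when posterior replicate 1 was left out (edgeR adjusted p = 0.0665). PRRX2 and KAZALD1 missed the threshold without 1 or more of posterior replicates 1, 2, 3 and 4 and U0126 replicates 1, 2, 3 and 5, with highest edgeR adjusted p of 0.100 to 0.161. PRRX1, the common marker of limb connective tissue, stood at 35.2, 21.2, 16.9 and 10.8 CPM untreated and 5.27, 7.08, 3.9, 21.2 and 1 CPM treated and was not called (−1.45 ± 0.66, SE), and neither was TNC, a wound matrix glycoprotein (−1.35 ± 0.73, SE), which was at 102 CPM in the library labelled U0126 replicate 5 and at 444 to 1135 CPM in the other treated libraries. The summed level of the whole list was 7466 to 10049.5 CPM in posterior and 2616 to 6311 CPM in U0126 libraries, the highest of the latter being replicate 4. Without inhibitor it was 5197 to 11337 CPM in anterior and 2201 to 5117 CPM in uninjured libraries. Low sums were thus not particular to the treated libraries. In bulk tissue, fewer cells of a type and less RNA of a gene per cell cannot be told apart.

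Collagen genes had the highest share of lower calls among the 55 lists: 11 of 24 chains (45.8%) were lower and 0 higher, with a median log2 fold change of −1.23; without U0126 replicate 5 they were 12 lower. The lower calls ran from 0 without posterior replicate 1 to 17 without U0126 replicate 4. For 13 of the 24 chains every treated library lay below every posterior one, which held for 6.02% of all genes tested. The 3 chains of collagen VI, a beaded-filament collagen around cells, fell together. COL6A1 stood at 1992, 1403, 1639 and 1952 CPM untreated and 214, 520, 304, 1045 and 508 CPM treated, with replicate 4 nearest to the posterior libraries (log2 fold change −1.75 ± 0.37, SE; edgeR adjusted p = 0.0164). COL6A2 (−1.66 ± 0.35, SE) and COL6A3 (−1.57 ± 0.37, SE) were chosen after their values were seen. The fibrillar chains COL5A2 (−1.27 ± 0.27, SE), COL11A1 (−1.59 ± 0.33, SE) and COL24A1 (−1.18 ± 0.25, SE) fell too. COL6A1, COL6A2, COL5A2, COL11A1 and COL24A1 missed the threshold when posterior replicate 1 was left out (edgeR adjusted p = 0.0538 to 0.0617). COL6A3 missed the threshold without 1 or more of posterior replicate 1 and U0126 replicates 1 and 3, with an edgeR adjusted p of up to 0.0685. The chains of collagen I, the main fibre of skin and bone, were also chosen after their values were seen. COL1A1 stood at 6257, 5079.7, 5760.1 and 9328 CPM untreated and 1331, 2987, 1448, 4061 and 5642 CPM treated; it passed without U0126 replicate 5 (log2 fold change −1.43, edgeR adjusted p = 0.0306) and not with it (0.0815), as did COL1A2 (0.0274 and 0.0791 in edgeR). The collagen genes summed to 21986 to 33219 CPM in posterior libraries, 6290.0 to 17223 CPM in U0126 libraries and 13435 to 22121 CPM in anterior ones. Uninjured libraries ran from 13274 to 20536 CPM, below every posterior library. A sum below the posterior range was thus not particular to the treated libraries.

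Basement membrane genes held 7 lower calls among 23 (30.4%). The laminin chains LAMC1 (−0.74 ± 0.17, SE), LAMB1 (−1.27 ± 0.30, SE) and LAMA5 (−1.30 ± 0.34, SE) and the proteoglycan AGRN (−0.93 ± 0.23, SE) fell. LAMB1 stood at 322, 266, 259 and 238 CPM untreated and 74.3, 119.9, 114, 189 and 66.1 CPM treated, with no overlap. Other matrix genes held 7 lower calls among 42: THBS3, a thrombospondin (−1.79 ± 0.34, SE), the cartilage matrix protein MATN4 (−3.01 ± 0.61, SE), the keratan sulfate proteoglycan KERA (−1.31 ± 0.29, SE) and the microfibril protein MFAP2 (−1.21 ± 0.28, SE) led them. THBS3 and MATN4 missed the threshold when posterior replicate 1 was left out (edgeR adjusted p = 0.0532 to 0.0571). LAMC1, LAMB1, LAMA5, AGRN, KERA and MFAP2 missed the threshold without 1 or more of posterior replicates 1, 2, 3 and 4 and U0126 replicates 1, 2 and 3, with highest edgeR adjusted p of 0.0644 to 0.0944. Proteases and their inhibitors held 7 among 33. ADAMTS9, a proteoglycan-cleaving protease, stood at 8.2, 7.86, 8.63 and 10.3 CPM untreated and 1.62, 1.88, 1.43, 3.23 and 1.7 CPM treated (log2 fold change −2.15 ± 0.24, SE; edgeR adjusted p = 0.00159), and MMP25, a membrane-anchored metalloprotease, at 25.2, 33.2, 27 and 35.3 CPM untreated and 8.9, 11.2, 12.6, 11.2 and 5.12 CPM treated (−1.62 ± 0.25, SE). Both separated the groups fully. ADAMTS9 and MMP25 stayed called with any 1 of the 9 libraries left out.

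Cartilage and bone genes held 5 lower calls among 23. RUNX1, a RUNX factor of early skeletal cells, fell (−0.94 ± 0.18, SE). The cartilage proteoglycan ACAN was at 3.42, 0.408, 1.03 and 0.305 CPM untreated and 0, 0.0632, 0.108, 0.122 and 0 CPM treated, and the bone protein IBSP at 0.378, 0.490, 0.514 and 0.196 CPM untreated and 0, 0, 0.0217, 0 and 0.0257 CPM treated; both passed (edgeR adjusted p = 0.0260 and 0.0266), and no fold is given because the treated libraries held almost no reads. Integrin genes, which anchor cells to matrix, held 2 lower calls, ITGA9 (−1.27 ± 0.23, SE) and ITGA8 (−1.40 ± 0.35, SE), and 1 higher, ITGA10 (2.51 ± 0.63, SE), among 18. ITGA9 stayed called with any 1 of the 9 libraries left out. RUNX1 missed the threshold when posterior replicate 1 was left out (edgeR adjusted p = 0.0537). ACAN, IBSP, ITGA8 and ITGA10 missed the threshold without 1 or more of posterior replicates 1, 2, 3 and 4 and U0126 replicates 1, 2 and 3, with highest edgeR adjusted p of 0.0703 to 0.106.

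Markers of other cell types moved to different extents. The complement C1q genes, expressed by macrophages, fell. C1QB stood at 131, 160.1, 87.7 and 101 CPM untreated and 47.3, 33.2, 36.9, 58.4 and 62.3 CPM treated and C1QC at 251, 331, 169.7 and 223 CPM untreated and 98.5, 67.9, 88.2, 138 and 116 CPM treated, neither with overlap. The log2 fold changes of C1QA, C1QB and C1QC were −1.39 ± 0.27, −1.33 ± 0.23 and −1.26 ± 0.22 (SE), and these were the 3 calls among 24 macrophage genes. C1QB and C1QC stayed called with any 1 of the 9 libraries left out. C1QA missed the threshold when posterior replicate 1 was left out (edgeR adjusted p = 0.0538). All 24 together summed to 2489 to 4442 CPM in posterior and 1626 to 2966 CPM in U0126 libraries, which overlapped through posterior replicate 3, and none was at 0 in either group. Endothelial and mural genes held 5 lower calls among 28, including the transcription factors FLI1 (−1.32 ± 0.28, SE) and SOX18 (−1.46 ± 0.39, SE), the vessel factor ANGPT1 (−1.87 ± 0.50, SE) and the smooth muscle actin ACTA2 (−1.12 ± 0.30, SE). ANGPT1 and ACTA2 did not pass without U0126 replicate 5 (edgeR adjusted p = 0.0510 and 0.0619). FLI1, SOX18, ANGPT1 and ACTA2 missed the threshold without 1 or more of posterior replicates 1, 2, 3 and 4 and U0126 replicates 1, 2, 3 and 5, with highest edgeR adjusted p of 0.0617 to 0.123. The endothelial marker CDH5 was at 10.3, 7.1, 8.14 and 7.2 CPM untreated and 1.87, 10.3, 6.1, 5.91 and 6.3 CPM treated. Not all members moved the same way: 19 of the 28 lay below 0 on the log2 scale and 9 above, with a median of −0.30. TEK, another endothelial gene, was on the higher side (0.38 ± 0.54, SE) without being called. The list summed to 475 to 545 CPM in posterior and 275 to 508 CPM in U0126 libraries. NCAM1, an adhesion molecule of nerve and mesenchyme, was the 1 call among 22 Schwann cell and nerve genes (−1.73 ± 0.50, SE). That share of 4.55% was close to the 3.99% called lower over all genes. NCAM1 did not pass without U0126 replicate 5 (edgeR adjusted p = 0.0691). NCAM1 also missed the threshold without any 1 of posterior replicates 1, 2, 3 and 4 and U0126 replicates 1, 2 and 3. The part of cell makeup in these results was not tested.

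Among 27 genes of differentiated epidermis 6 rose and 0 fell (22.2%), 27 of 27 had log2 fold changes above 0, and the median was 0.79, or 0.64 without U0126 replicate 5. ESRP2, an epithelial splicing regulator, stood at 126.4, 144, 158 and 177 CPM untreated and 346, 290.3, 301, 212 and 299 CPM treated, without overlap (log2 fold change 0.94 ± 0.17, SE; edgeR adjusted p = 0.0122). The epidermal factors GRHL1 (0.96 ± 0.20, SE) and GRHL2 (0.86 ± 0.20, SE), and the desmosome plaque gene PKP3 (0.89 ± 0.20, SE) rose. Of 21 genes of wound and apical epithelium, 1 rose and 1 fell (4.76% each), close to the shares over all genes of 4.13% and 3.99%. Of the 21, 15 had log2 fold changes below 0, and the median was −0.40, or −0.34 without U0126 replicate 5. The call that rose was the epithelial cadherin CDH1 (0.83 ± 0.18, SE). KRT8, a simple-epithelium keratin, fell with all libraries (−1.36 ± 0.39, SE) and did not pass without U0126 replicate 5 (edgeR adjusted p = 0.0786). ESRP2 stayed called with any 1 of the 9 libraries left out. GRHL1, GRHL2, PKP3, CDH1 and KRT8 missed the threshold without 1 or more of posterior replicates 1, 2, 3 and 4 and U0126 replicates 1, 2, 3 and 5, with highest edgeR adjusted p of 0.0644 to 0.125. The summed level of the differentiated epidermis list ran from 3036 to 5397 CPM in posterior and from 4642 to 7971 CPM in U0126 libraries. Without inhibitor it ran from 4682 to 7466 CPM in anterior and from 5689 to 8195 CPM in uninjured libraries. The higher sum was thus not particular to the treated libraries. The basal epidermal factor TP63 was at 39.8, 43.6, 46.1 and 103 CPM untreated and 46.3, 57.7, 47.2, 40.9 and 85.2 CPM treated and did not pass (−0.07 ± 0.28, SE). The part of these sums in the results was not tested.

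Skeletal muscle genes had no calls in edgeR or DESeq2 and none at an unadjusted p under 0.05 among 26. Their sum ranged from 2654 to 17815 CPM in posterior and from 1074 to 16836 CPM in U0126 libraries, so the muscle sum varied widely within both groups. No call was made in edgeR among 15 muscle progenitor genes (1 higher and 2 lower at an unadjusted p under 0.05; 0 in DESeq2) or 17 lymphocyte genes (0 higher and 3 lower; 0 in DESeq2). Likewise none passed in edgeR among 13 granulocyte genes (0 higher and 1 lower at an unadjusted p under 0.05; 1 lower in DESeq2), 14 pigment genes (1 higher, 3 lower; 1 lower in DESeq2) and 6 red blood cell genes (1 higher, 0 lower; 1 higher in DESeq2).

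**Figure D3:**
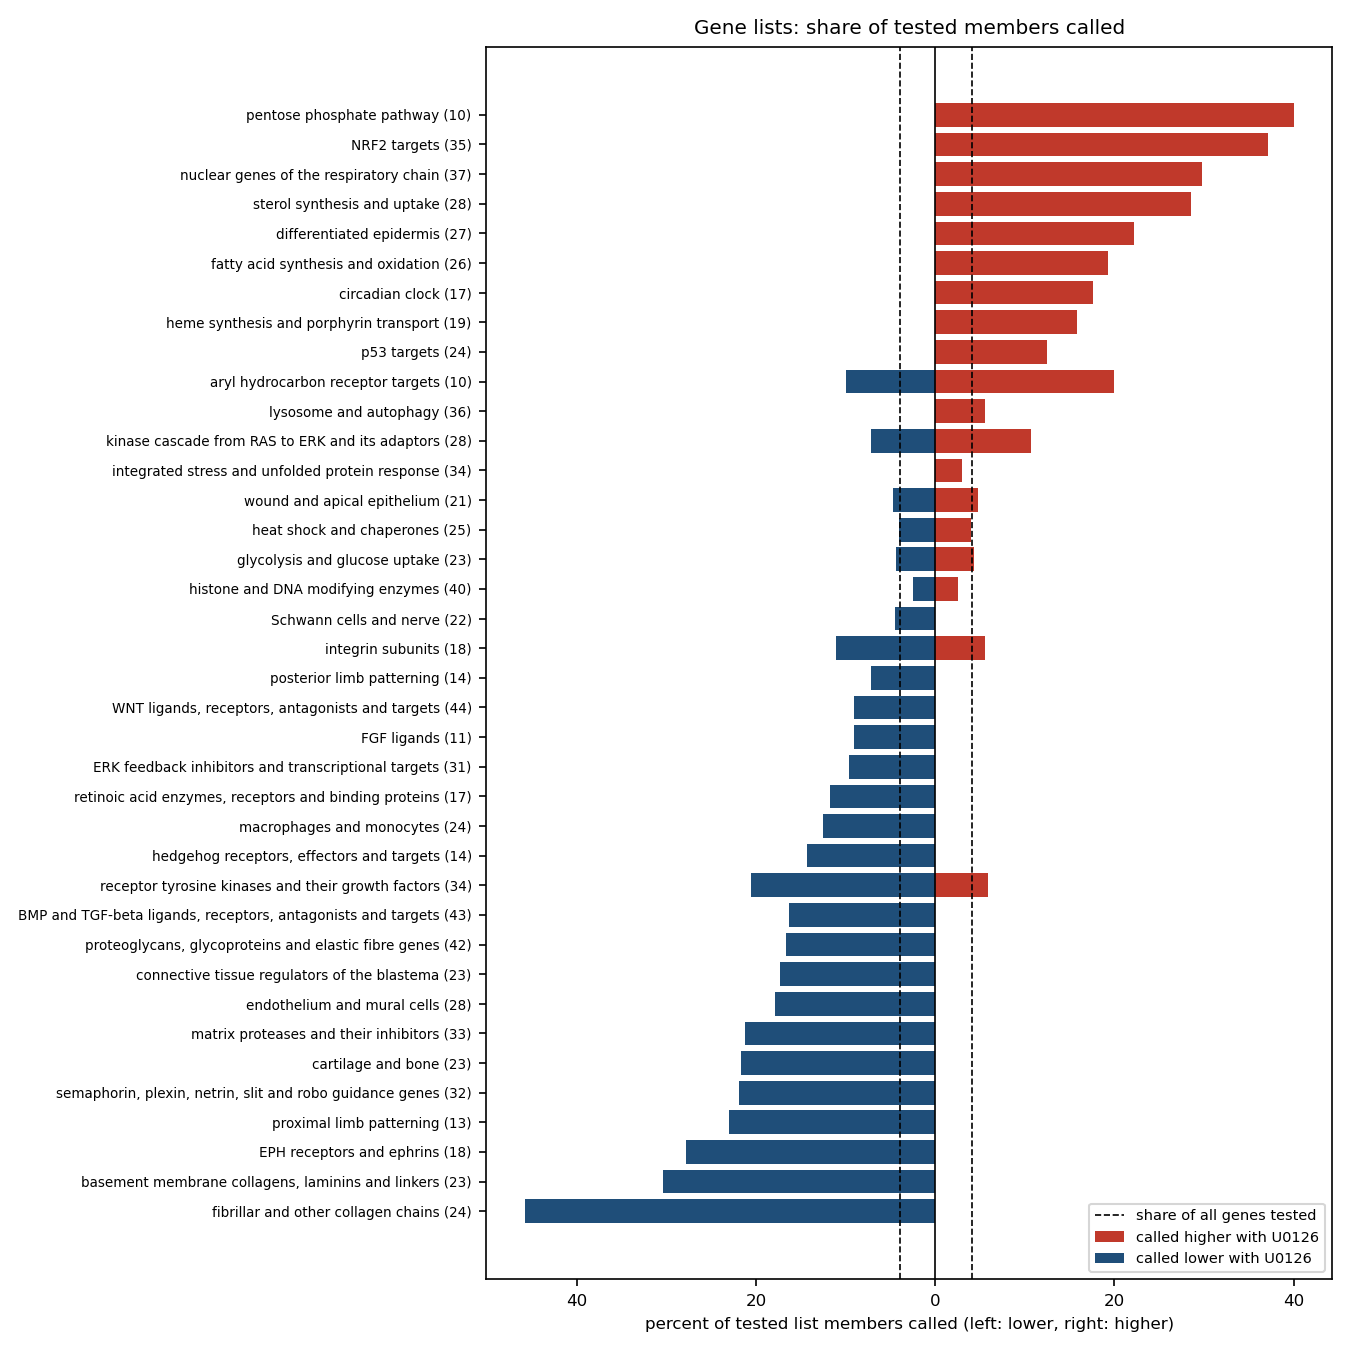
Percent of the tested members of each gene list (y axis, number tested in brackets) called higher (red, right) or lower (blue, left) with U0126 in all 9 libraries; dashed lines give the shares over all genes, 4.13% and 3.99%. Lists with no call are not drawn. Collagen chains have the longest bar to the left and pentose phosphate genes the longest to the right.

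Genes of the antioxidant response held the most calls among those higher with U0126. NRF2 is a transcription factor that switches on genes against oxidants and foreign chemicals; of 35 tested targets 13 rose (37.1%) and 0 fell, with a median of 0.52, and 15 rose without U0126 replicate 5. The count ran from 3 without posterior replicate 1 to 15 without U0126 replicate 5. PIR, an iron-binding nuclear protein, stood at 28.7, 20.4, 19.2 and 29.9 CPM untreated and 119.9, 107, 134, 81.7 and 60.4 CPM treated. The lowest treated library, labelled replicate 5, was above the highest untreated one (log2 fold change 2.04 ± 0.24, SE; edgeR adjusted p = 0.00297). GSTP1, a glutathione transferase, stood at 347, 467, 456 and 431 CPM untreated and 922, 1203, 1290.0, 1089 and 999 CPM treated (1.37 ± 0.17, SE; edgeR adjusted p = 0.00328), and its groups were equally separate. The cystine carrier SLC7A11 (1.11, 0.680, 1.59 and 0.850 CPM untreated and 8.76, 10.6, 6.88, 6.28 and 1.85 CPM treated) and OSGIN1 (1.72, 2.12, 1.36 and 0.894 CPM untreated and 16.3, 12.4, 6.01, 8.21 and 0.540 CPM treated), chosen after their values were seen, passed without U0126 replicate 5 (edgeR adjusted p = 0.0440 and 0.0354; 0.0561 and 0.0825 with all libraries). SQSTM1, an autophagy receptor in the list, rose (1.64 ± 0.42, SE). The calls PGD, TALDO1 and TKT in that list are enzymes of the pentose phosphate pathway, which makes NADPH and ribose and in which 4 of 10 tested genes rose. TKT stood at 157, 232, 184 and 306 CPM untreated and 942, 1706, 954, 602 and 565 CPM treated (log2 fold change 2.12 ± 0.39, SE; edgeR adjusted p = 0.0123) and TALDO1 at 276, 320.3, 329 and 375 CPM untreated and 711, 764, 764, 536 and 565 CPM treated (1.04 ± 0.17, SE). No library of either gene crossed between groups. PGD rose as well (1.16 ± 0.25, SE). PIR, GSTP1 and TALDO1 stayed called with any 1 of the 9 libraries left out. TKT missed the threshold when posterior replicate 1 was left out (edgeR adjusted p = 0.0536). PGD and SQSTM1 missed the threshold without 1 or more of posterior replicates 1, 2 and 3 and U0126 replicates 1, 2 and 3, with highest edgeR adjusted p of 0.0650 to 0.0956.

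The aryl hydrocarbon receptor is a sensor of planar aromatic compounds, and CYP1A1, a detoxifying oxidase, is its best-known target. CYP1A1 stood at 0.105, 0.109, 0.561 and 0 CPM untreated and 3.37, 11.6, 58.2, 117 and 0.257 CPM in U0126 replicates 1 to 5. Replicates 1 to 4 lay above every untreated library, replicate 4 being the highest, and the library labelled replicate 5 lay within the untreated range (log2 fold change 7.61 ± 1.68, SE; edgeR adjusted p = 0.0195). In the library labelled uninjured replicate 1 it reached 3.64 CPM, while uninjured replicates 2 and 3 were at 0.346 and 0.709 CPM. AHRR, the repressor of the receptor, stood at 3.36, 2.31, 3.69 and 4.86 CPM untreated and 13.4, 10.4, 24.8, 10.9 and 4.94 CPM treated (1.86 ± 0.41, SE). CYP1B1, a related oxidase chosen after its values were seen, stood at 0.650, 2.12, 1.99 and 0.589 CPM untreated and 4.78, 9.42, 21.6, 26.1 and 0.0771 CPM treated and passed without U0126 replicate 5 (log2 fold change 3.53, edgeR adjusted p = 0.0197; 0.0699 with all). ARNT2, a partner of the receptor family, fell (−0.60 ± 0.15, SE). KYNU, an enzyme of tryptophan breakdown also chosen after its values were seen, had 0 reads in the 4 posterior libraries and 156 in the treated ones, all 5 of which held some (1.26, 0.527, 0.954, 0.342 and 0.489 CPM). Against a floor of 3 reads over the posterior group it was at least 41.7-fold higher (edgeR adjusted p = 0.0130). With no posterior reads, it was tested only because other libraries held reads. NR1I2, a nuclear receptor for foreign compounds chosen in the same way, rose (1.96 ± 0.36, SE). KYNU and NR1I2 stayed called with any 1 of the 9 libraries left out. KYNU was not among the calls with a stricter filter, which asks for 1 CPM or more in at least 4 libraries. CYP1A1, AHRR and ARNT2 missed the threshold without 1 or more of posterior replicates 1 and 2 and U0126 replicates 1, 2 and 3, with highest edgeR adjusted p of 0.0696 to 0.0941.

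Genes of heme handling included ABCB6, a porphyrin carrier, at 14.8, 11.9, 18.7 and 20.5 CPM untreated and 61.7, 51.2, 70.7, 51.6 and 21.8 CPM treated (log2 fold change 1.64 ± 0.27, SE; edgeR adjusted p = 0.0100). Replicates 1 to 4 lay well above both blastema groups without inhibitor, since anterior libraries were at 11.5 to 16 CPM, and the library labelled replicate 5 lay just above the posterior ones. The heme enzymes ALAD (1.26 ± 0.29, SE) and BLVRB (0.49 ± 0.13, SE) rose, giving 3 of 19 members. ABCB6 stayed called with any 1 of the 9 libraries left out. ALAD and BLVRB missed the threshold without 1 or more of posterior replicates 1, 2 and 3 and U0126 replicates 2 and 3, with highest edgeR adjusted p of 0.0630 to 0.111.

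Among nuclear genes of the mitochondrial respiratory chain, 11 of 37 rose (29.7%), 36 of 37 had log2 fold changes above 0, and the median was 0.30. Without U0126 replicate 5, 16 rose, and the count ran from 0 without posterior replicate 1 to 16 without U0126 replicate 5. The list's median distance to the posterior mean, on the log2 scale, was 0.13 to 0.56 in U0126 libraries. It was 0.27, 0.21 and 0.30 in uninjured replicates 1 to 3 and −0.098 to 0.025 in anterior libraries. A level above the posterior mean was thus not particular to the treated libraries. Succinate dehydrogenase, which joins the citric acid cycle to the chain, contributed 3 of the calls. SDHA stood at 128, 133, 157 and 175 CPM untreated and 400.1, 314, 433, 313 and 164 CPM treated, overlapping only through the library labelled replicate 5 (log2 fold change 1.13 ± 0.22, SE; edgeR adjusted p = 0.0130). SDHB (0.76 ± 0.17, SE), SDHC (0.54 ± 0.12, SE) and NDUFV1, a subunit of complex I (0.62 ± 0.13, SE), rose as well. SDHA missed the threshold when posterior replicate 1 was left out (edgeR adjusted p = 0.0586). SDHB, SDHC and NDUFV1 missed the threshold without 1 or more of posterior replicates 1 and 2 and U0126 replicate 1, with highest edgeR adjusted p of 0.0617 to 0.0723. The 13 proteins encoded in mitochondrial DNA had no calls in edgeR or DESeq2, none at an unadjusted p under 0.05, and a median of −0.08.

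Sterol genes rose in 8 of 28 cases (28.6%) with a median of 1.02, and in 14 without U0126 replicate 5; the count ran from 0 without either of posterior replicates 1 and 2 to 14 without either of U0126 replicates 4 and 5. TM7SF2, an enzyme late in the pathway, stood at 22.4, 27.8, 32.5 and 22.1 CPM untreated and 50.7, 67.9, 61.5, 38.6 and 33.2 CPM treated (log2 fold change 0.94 ± 0.21, SE; edgeR adjusted p = 0.0189). Its groups did not overlap, and U0126 replicates 4 and 5 were the lowest treated libraries. SC5D, another late enzyme (1.18 ± 0.29, SE), and SREBF1, a factor that drives lipid genes (1.02 ± 0.24, SE), rose. The spread within the treated group was wide for the enzyme SQLE, at 3.15, 6.42, 7.06 and 1.24 CPM untreated and 5.41, 95.4, 71.4, 21.3 and 4.04 CPM treated, and for LSS, at 5.06, 7.16, 6.92 and 3.92 CPM untreated and 5.11, 46.3, 38.8, 14.5 and 4.89 CPM treated; both were chosen after their values were seen and passed without U0126 replicate 5 (edgeR adjusted p = 0.0334 and 0.0461; 0.0527 and 0.0817 with all). U0126 replicates 2 and 3 were highest for both. TM7SF2, SC5D and SREBF1 missed the threshold without 1 or more of posterior replicates 1, 2 and 4 and U0126 replicates 1, 2 and 3, with highest edgeR adjusted p of 0.0704 to 0.0845.

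Fatty acid genes rose in 5 of 26 cases. Their median distance to the posterior mean, on the log2 scale, was 0.13 to 0.42 in U0126 libraries. It was 0.40, 0.17 and 0.18 in uninjured replicates 1 to 3 and 0.081 to 0.18 in anterior libraries, so it was above 0 without inhibitor too. PPARA, a nuclear receptor that drives fatty acid oxidation, stood at 9.92, 9.93, 7.06 and 8.22 CPM untreated and 26.4, 20.8, 24.1, 12.1 and 13.6 CPM treated, without overlap (log2 fold change 1.14 ± 0.21, SE; edgeR adjusted p = 0.0129). PPARGC1B, a coactivator of mitochondrial genes (1.71 ± 0.38, SE), and FASN, the fatty acid synthase (1.41 ± 0.38, SE), rose, as did ACSS2, which makes acetyl-CoA from acetate (0.51 ± 0.14, SE), although not without U0126 replicate 5 (edgeR adjusted p = 0.0589). PPARA stayed called with any 1 of the 9 libraries left out. PPARGC1B missed the threshold when posterior replicate 1 was left out (edgeR adjusted p = 0.0716). FASN and ACSS2 missed the threshold without 1 or more of posterior replicates 1, 2 and 3 and U0126 replicates 1, 2, 3 and 5, with highest edgeR adjusted p of 0.115 to 0.126.

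**Figure D4:**
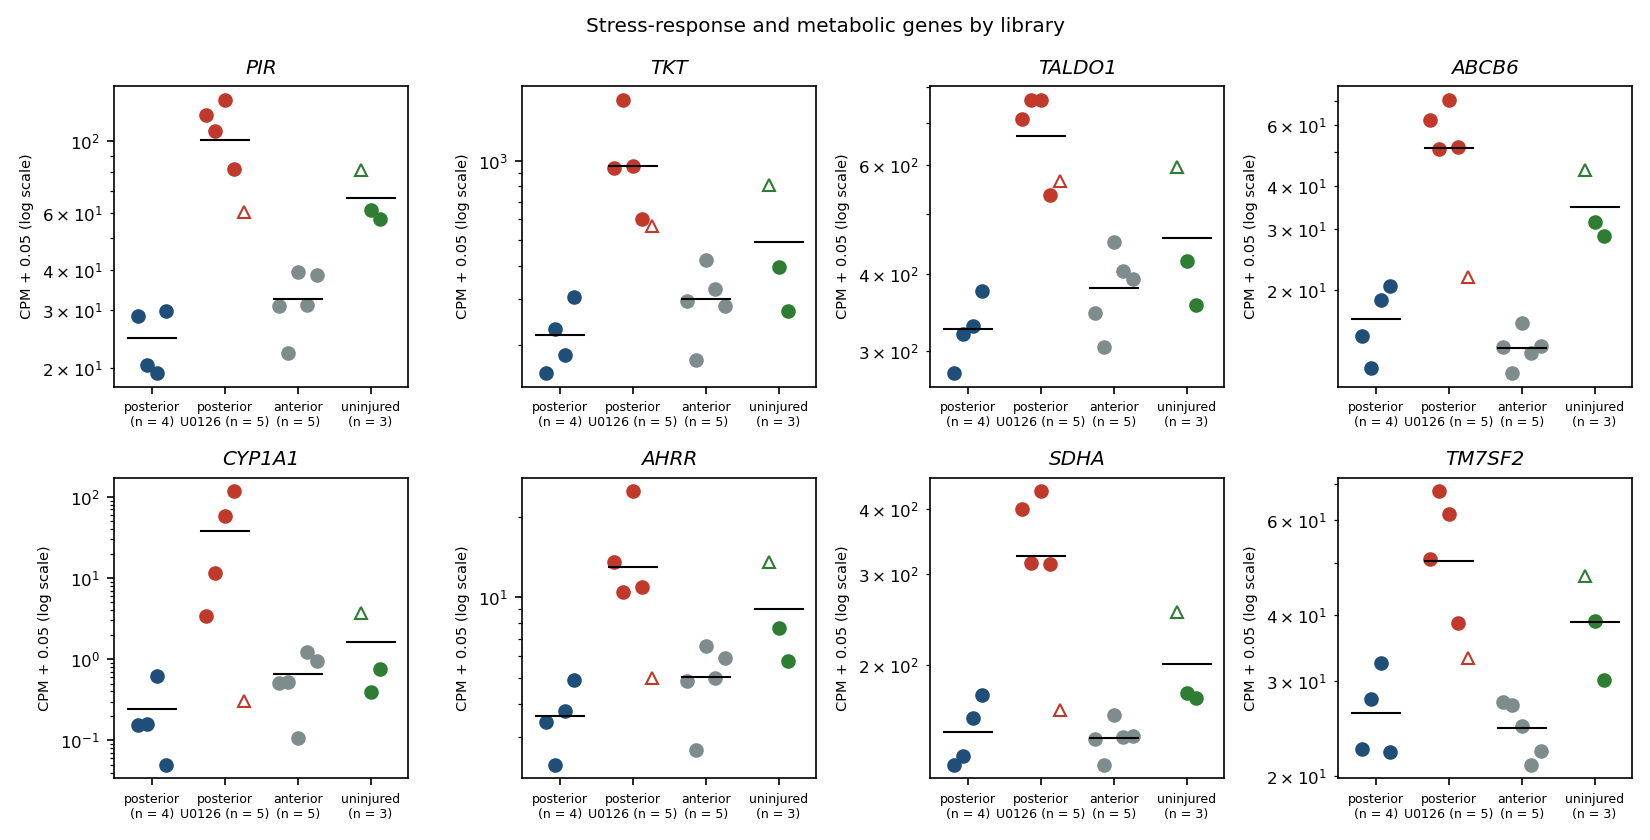
CPM + 0.05 on a log axis (y) of 8 genes higher with U0126 in each library by group (x); lines are group means, open triangles mark U0126 replicate 5 and uninjured replicate 1. U0126 replicates 1 to 4 lie above the posterior libraries in all 8 panels, and replicate 5 lies within their range for CYP1A1 and SDHA.

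Clock genes rose in 3 of 17 cases. BMAL1, the core activator of the clock, stood at 15.5, 17.6, 14.5 and 15.6 CPM untreated and 26.2, 23.3, 28.5, 21.9 and 23.4 CPM treated (log2 fold change 0.64 ± 0.12, SE; edgeR adjusted p = 0.0123), and the groups did not meet. PER1, a clock gene that glucocorticoids also induce, stood at 0.524, 0.299, 0.608 and 1.68 CPM untreated and 30.8, 8.47, 21.5, 8.01 and 1.29 CPM treated, a wide spread with the library labelled replicate 5 inside the posterior range (4.16 ± 1.15, SE). DBP, an output gene of the clock, rose (1.27 ± 0.35, SE). The labels give no hour of collection. Targets of p53 rose in 3 of 24 cases, MDM2 (0.51 ± 0.12, SE), DDB2 (0.90 ± 0.22, SE) and XPC (0.84 ± 0.22, SE), of which DDB2 and XPC act in DNA repair. Of 34 genes of the integrated stress and unfolded protein response 1 rose (2.94%, below the 4.13% over all genes) and 0 fell. Yet 31 had log2 fold changes above 0, with a median of 0.56, and 11 were higher and 1 lower at an unadjusted p under 0.05. Without U0126 replicate 5, 3 rose. With uninjured replicate 1 left out as well, 13 rose and 0 fell, where 7.1% of all genes rose. The call with all libraries was DDIT3 (1.16 ± 0.34, SE), a transcription factor of that response. Among 25 heat shock and chaperone genes 1 rose and 1 fell, close to the shares over all genes, with a median of 0.05. HSP90AA1, a chaperone, was the one that rose (0.92 ± 0.26, SE), and SERPINH1, a collagen chaperone, the one that fell (−1.11 ± 0.27, SE). BMAL1 stayed called with any 1 of the 9 libraries left out. PER1, DBP, MDM2, DDB2, XPC, DDIT3, HSP90AA1 and SERPINH1 missed the threshold without 1 or more of posterior replicates 1, 2, 3 and 4 and U0126 replicates 1, 2 and 3, with highest edgeR adjusted p of 0.0739 to 0.145.

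Genes of cell division and protein synthesis held no calls in edgeR. Of 43 DNA replication genes, 3 were higher at an unadjusted p under 0.05 and DESeq2 called 1; of 38 mitosis genes, 51 ribosomal protein genes and 34 ribosome biogenesis genes none passed in DESeq2 or at that level. Their medians were 0.20, 0.14, −0.07 and 0.05 on the log2 scale. MKI67, a marker of dividing cells, stood at 297, 306, 307 and 210.1 CPM untreated and 298, 347, 353, 357 and 269.7 CPM treated, and was not called (0.21 ± 0.15, SE). U0126 replicates 2, 3 and 4 lay above every untreated library, replicates 1 and 5 lay among them, and posterior replicate 4 was the lowest of all. G1 cyclin and CDK inhibitor genes held no calls in edgeR among 17 (1 higher and 2 lower at an unadjusted p under 0.05; 2 lower in DESeq2), and interferon and antigen presentation genes none among 12 in either tool or at an unadjusted p under 0.05. A log2 change of 1 was recovered in simulated counts for 42 of 100 genes, all averaging at least 50 reads, so small changes in these lists were not detectable with certainty.

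Among genes with a symbol, 737 met the rule of a call with and without U0126 replicate 5, an average of at least 1 on the log2 CPM scale and no overlap between groups; that absence of overlap is part of the rule and adds no support. The 12 highest included MFAP3L, a membrane protein (1.13, 0.735, 1.15 and 1.33 CPM untreated and 7.66, 2.91, 7.92, 4.37 and 6.22 CPM treated; log2 fold change 2.42 ± 0.44, SE), the carrier SLC16A14 (2.36 ± 0.62, SE), the mitochondrial carbonic anhydrase CA5A (2.22 ± 0.46, SE), and HIGD1A, a hypoxia-inducible mitochondrial protein (2.11 ± 0.52, SE). They also held CYP4F22, an enzyme of skin barrier lipids (2.02 ± 0.46, SE), LONRF1 (1.92 ± 0.33, SE), the retinol-binding RBP7 (1.86 ± 0.35, SE), BNIPL (1.82 ± 0.30, SE) and the lipid phosphodiesterase GDPD3 (1.75 ± 0.40, SE). The 12 lowest included RGS4, a brake on G-protein signals (1.89, 1.93, 9.28 and 11.4 CPM untreated and 0.0703, 0.379, 0.499, 0.489 and 0.566 CPM treated; −3.93 ± 0.90, SE), IGSF10 (−2.29 ± 0.52, SE), the bone proteoglycan OMD (−2.21 ± 0.51, SE) and EVA1A, an autophagy-linked membrane protein (−2.07 ± 0.33, SE). MFAP3L, LONRF1, BNIPL and EVA1A stayed called with any 1 of the 9 libraries left out. RBP7 missed the threshold when posterior replicate 1 was left out (edgeR adjusted p = 0.0536). SLC16A14, CA5A, HIGD1A, CYP4F22, GDPD3, RGS4, IGSF10 and OMD missed the threshold without 1 or more of posterior replicates 1, 2, 3 and 4 and U0126 replicates 1, 2 and 3, with highest edgeR adjusted p of 0.0532 to 0.0943.

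Of the 117 genes called with any 1 library left out, 84 had a symbol, and several chosen after their values were seen showed narrow group ranges. IGFBP3, which binds insulin-like growth factors, stood at 53.8, 37, 43.9 and 38.4 CPM untreated and 14.2, 10.4, 11.2, 10.8 and 13.7 CPM treated (log2 fold change −1.84 ± 0.29, SE; edgeR adjusted p = 0.0100). All 5 treated libraries, replicates 4 and 5 included, lay close together and far below the posterior ones. Choosing genes after their values were seen favours such separation, which therefore adds no support. The crosslinking enzyme TGM2 (−1.72 ± 0.36, SE), the WNT antagonist SFRP4 (−1.82 ± 0.38, SE), the calcineurin regulator RCAN2 (−3.74 ± 0.73, SE), and EVC (−0.75 ± 0.13, SE) and IFT122 (−0.74 ± 0.13, SE), proteins of the primary cilium through which hedgehog signals pass, fell. MAPK13, a p38 kinase of epithelia, stood at 42.5, 42.6, 45.9 and 55.5 CPM untreated and 84.4, 76.7, 80.8, 68.9 and 89.1 CPM treated (0.78 ± 0.13, SE), with no overlap. The mitochondrial citrate carrier SLC25A1 rose (1.17 ± 0.19, SE).

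**Figure D5:**
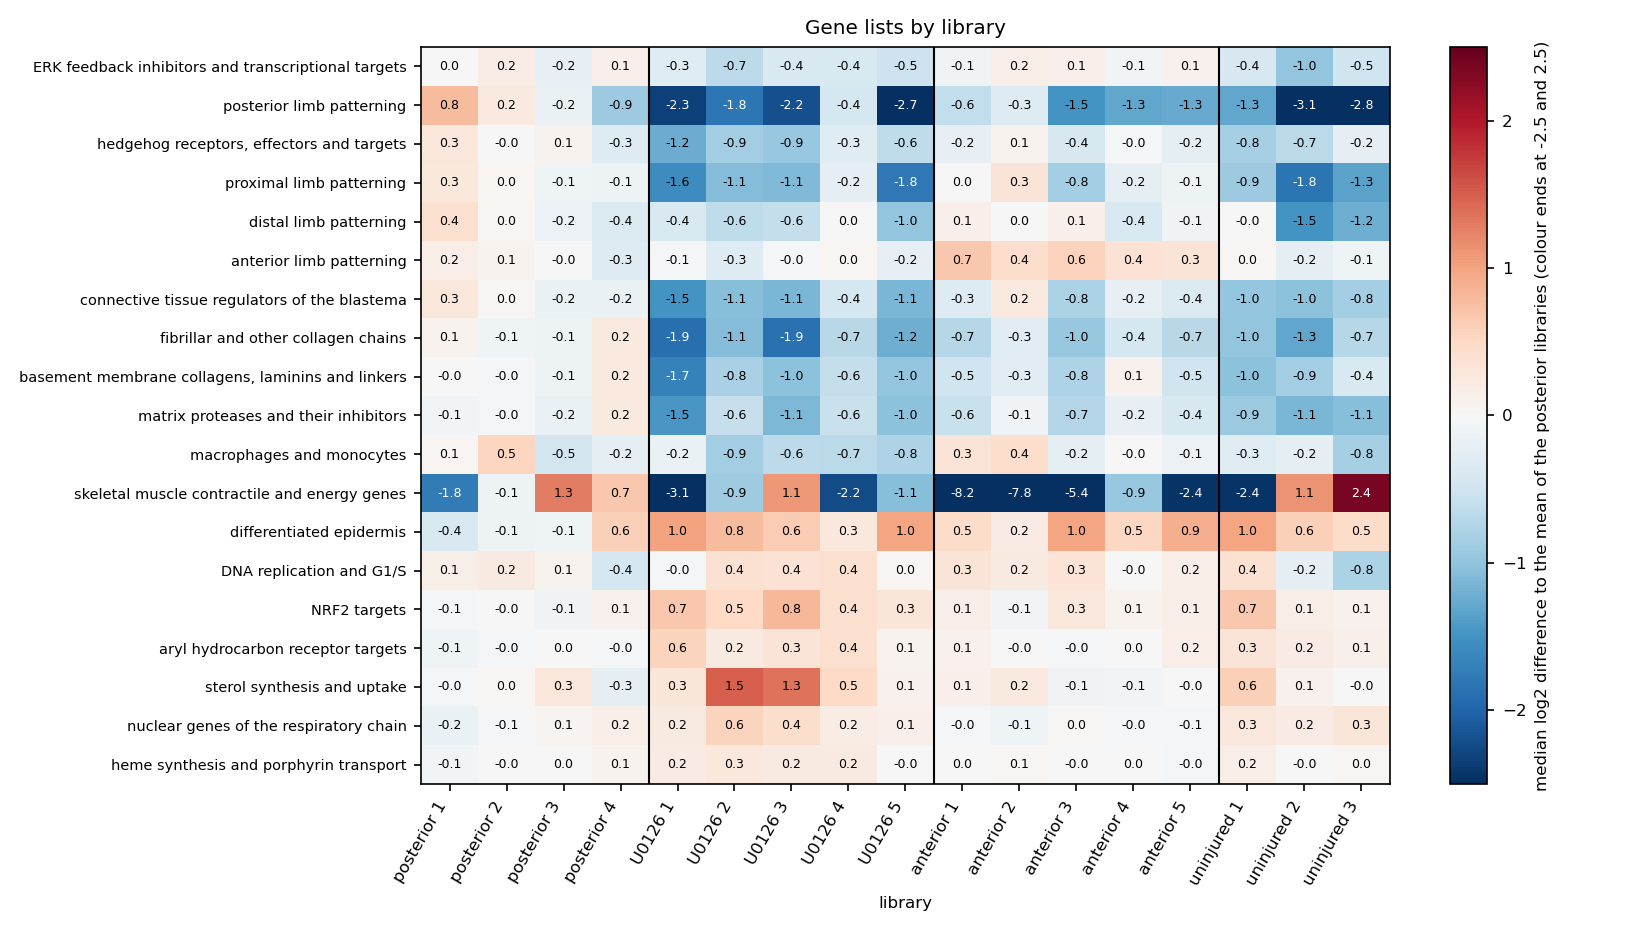
Median log2 difference of each gene list (y axis) to the mean of the posterior libraries in each of the 17 libraries (x axis), with the value printed in each cell (blue lower, red higher; pseudocount 0.5 CPM). U0126 replicate 4 is near 0 for posterior (−0.44) and proximal genes (−0.24), and uninjured replicate 1 stands at 0.68 for NRF2 targets, against 0.14 and 0.11 in the other uninjured libraries.

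The treated libraries differed among themselves by gene group, on the log2 scale relative to the posterior mean. For the posterior list, replicate 4 lay at −0.44 and the others at −2.73 to −1.82. For collagen genes all 5 were below 0, at −1.88 to −0.70. NRF2 targets were above 0 in all 5, at 0.31 to 0.82. Sterol genes were highest in replicates 2 and 3, at 1.5 and 1.35, and stood at 0.10 in the library labelled replicate 5.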

How the data were processed

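Polyadenylated RNA from axolotl forelimb tissue was sequenced. Read counts per gene were deposited by the authors, 1 table per library. Trimmomatic 0.39 and STAR 2.7.3a are named in the submitters' processing notes. Genome build and gene models were not given in the sources used here. The unstranded counts were used, after dropping the first 4 lines of each table, which hold reads not counted for any gene (14.2% to 16.4% of the total). Symbols came from RefSeq by locus tag.

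Counts of all 17 libraries were fitted together with edgeR 4.0.16 (robust quasi-likelihood test, TMM scaling, filterByExpr, Benjamini-Hochberg adjustment over all 19398 genes) in R 4.3.3 with limma 3.58.1, so that the 4 groups shared 1 estimate of spread. A gene was called at an adjusted p under 0.05. DESeq2 1.42.0 was an alternative, as were RLE and total-count scaling, other filters, reverse-strand counts, a fit of the 2 groups alone, a replicate block and leaving out libraries. Tables and figures used Python 3.11.15, pandas 2.3.3 and matplotlib 3.10.9, with a pseudocount of 0.5 CPM for list positions. The test was tried on simulated data.

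Genes were named by rule: the 12 highest and 12 lowest fold changes among genes with a symbol, called with and without U0126 replicate 5, with an average log2 CPM of at least 1 and no overlap; from each list up to 4 called members, taken by lowest adjusted p; and preset genes. The text gives a selection, some genes are not reported here though lists count them, and other genes are said to be chosen after their values were seen. The comparison and the gene lists were chosen with earlier results of these data known. No list was tested.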

Additional observations from a re-analysis of the deposited data

Results flagged for a closer look

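For each gene named in the text and each cell type sum, the highest and the lowest library of a group were set against the rest of that group by Dixon's criterion. In 39 of 380 groups of values a library stood apart. The criterion's rate of about 1 in 20 holds for independent values. Here the genes share the same libraries and some were chosen after their values were seen, so the count cannot be compared with that rate. U0126 replicate 4 was the high library of the treated group for 22 genes, given here in CPM. It stood apart for EPHA4 at 12, HAND2 at 12.4, SHH at 1.25, HOXD13 at 6.87, PTCH1 at 15.2, GLI1 at 3.93, TBX5 at 17.7, HOXA11 at 8.16, HOXA9 at 4.01, LHX9 at 1.59, LHX2 at 1.34, FGF8 at 0.831 and FGF9 at 5.79 CPM. It did so too for FGF10 at 7.06, RARA at 51.8, NEO1 at 72.6, NRP2 at 26, PRRX2 at 81, COL11A1 at 383, MATN4 at 1.47, ADAMTS9 at 3.23 and IFT122 at 5.03 CPM. Posterior replicate 1 was the high library of its group for SOX18, at 14.3 CPM against 10.1 to 10.8 CPM in the others. Posterior replicate 3 was the high library of its group for ACTA2, at 52 CPM against 33.5 to 36 CPM in the others, RCAN2, at 3.2 CPM against 1.64 to 1.82 CPM in the others and SLC25A1, at 6.66 CPM against 6 to 6.04 CPM in the others. Posterior replicate 4 was the high library of its group for COL24A1, at 42.5 CPM against 28.5 to 30.1 CPM in the others and TP63, at 103 CPM against 39.8 to 46.1 CPM in the others. Posterior replicate 4 was the low library of its group for FGF9, at 0.545 CPM against 2.87 to 3.09 CPM in the others and MKI67, at 210.1 CPM against 297 to 307 CPM in the others. U0126 replicate 1 was the high library of its group for GRHL1, at 132 CPM against 69.7 to 81.2 CPM in the others. U0126 replicate 5 was the high library of its group for EREG, at 37.6 CPM against 10.8 to 16.9 CPM in the others and MEIS1, at 52.5 CPM against 24.5 to 32 CPM in the others.

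The skeletal muscle genes summed to 16836 CPM in U0126 replicate 3, against 1074 to 4595 CPM in the rest of its group. The macrophage genes summed to 2489 CPM in posterior replicate 3, against 4310.4 to 4442 CPM in the rest of its group. The granulocyte genes summed to 378 CPM in U0126 replicate 1, against 182 to 238 CPM in the rest of its group. The Schwann cell and nerve genes summed to 1856 CPM in posterior replicate 3, against 232 to 425 CPM in the rest of its group. The wound epithelium genes summed to 4169 CPM in posterior replicate 4, against 2545 to 2733 CPM in the rest of its group. The blastema mesenchyme genes summed to 6311 CPM in U0126 replicate 4, against 2616 to 3501 CPM in the rest of its group. Why these libraries stood apart was not tested.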

How the results depend on the processing

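The count of 1576 genes called by edgeR was within 1.5 times of 1599 with RLE scaling, 1176 with total-count scaling, 1247 without a filter, 1796 with a stricter filter and 1560 with reverse-strand counts. The split moved with total-count scaling, to 440 higher and 736 lower, where the median of all genes shifted by −0.08 on the log2 scale. Using only the 2 groups compared gave 983 genes (541 higher, 442 lower). DESeq2 gave 2968 (1483 higher, 1485 lower). Leaving out 1 library gave 127 to 2381 genes, with 63 to 1075 higher and 64 to 1306 lower. Without U0126 replicate 5 and uninjured replicate 1 together the count was 2575 (1404 higher, 1171 lower). The cause of these differences was not tested, beyond the fewer libraries in some fits. The labels do not say whether equal replicate numbers share an animal or a day. Deviations of same-numbered libraries from their group means correlated at 0.20, −0.06, 0.19 and −0.31. For differently numbered libraries these correlations ran from −0.33 to 0.36, so pairing was neither seen nor excluded. With the replicate number as a block, 947 genes passed (437 higher, 510 lower).

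Of the 129 called genes named in the text, 129 still passed with RLE scaling and in DESeq2, 114 with total-count scaling, 94 in the fit of the 2 groups and 28 without posterior replicate 1. With the stricter filter 125 passed, and FGF2, ACAN, IBSP and KYNU did not. None of the 129 changed sign. Among uncalled genes, FOS ran from −0.44 to 0.19 (log2 fold change) over the leave-outs, reaching 0.19 without posterior replicate 2 and 0.18 without U0126 replicate 2. MAP2K1 ran from −0.43 to 0.018, the latter without U0126 replicate 1. TP63 ran from −0.29 to 0.36, being 0.36 without posterior replicate 4 and 0.02 without U0126 replicate 4. MEIS1 was −0.074 with total-count scaling and −0.11 with the replicate block, and ran from −0.21 to 0.11 over the leave-outs.

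In simulated counts with these library sizes, 42 of 100 2-fold and 90 of 100 4-fold changes were recovered, in genes averaging at least 50 reads. There were 2 false calls among 19001 genes. Each gene was simulated independently and no library departed from its group, so these counts do not give the error rate of the real calls. Absent calls at small fold changes say little. Genes under about 1 CPM rest on few reads. The planned description of promoter motifs was not run, because no promoter sequence was used here.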
